A study of Mus musculus with 17 samples.

Results

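The genes described are Igf1, its receptor Igf1r and the IGF binding protein genes Igfbp2, Igfbp3, Igfbp4, Igfbp5, Igfbp6 and Igfbp7. These 8 genes were taken by symbol from the 55450 genes of the bulk table and the 35849 genes of the single-cell matrices. All samples came from female FVB/NJ MMTV-PyMT mice aged 10 to 12 weeks, in which the viral MMTV promoter drives the polyoma middle T oncogene in mammary epithelium, and every group, the reference included, carried this transgene. Lines were grown from the tumor of the mammary fat pad (MFP) and from metastases in lymph node (LN), in bone marrow (BM) and in lung, and each metastatic line was sorted by surface EpCAM and CD44 into EpCAMhigh cells that were CD44low or CD44high. The bulk data held 14 libraries, 2 for each of 7 groups: MFP, LN CD44low, LN CD44high, BM CD44low, BM CD44high, lung CD44low and lung CD44high. The 2 libraries of a group were distinct clonal isolates from different mice according to the methods of the study. Each library is thus 1 isolate, here called a clone, and a group mean rests on 2 clones. The methods describe sorted cultures and no growth from single cells. The MFP group has no CD44 status in its labels, and the labels name no treatment with an agent. A further 3 single-cell libraries were analysed here, 1 each of lung CD44high (lungH), lung CD44low (lungL) and LN CD44high cells (lymphH). The methods of the study speak of 2 replicates for each of these lines and its design text of 1, and with 1 library each there was no replicate to compare.

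IGF1 is a secreted growth factor that binds the receptor tyrosine kinase IGF1R, which signals through the IRS adaptors, PI3 kinase and AKT to growth and survival. Most circulating and tissue IGF is held by binding proteins, which prolong its life and keep it from the receptor, and which can also act on cells without IGF. Proteases such as PAPPA and PAPPA2 cut binding proteins and free the ligand, and the stanniocalcins STC1 and STC2 inhibit those proteases. In the mammary gland IGF1 comes mostly from the stroma, and IGFBP5 is known for its rise during involution.

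On the mm10 build, with the GENCODE vM21 annotation, Igfbp2 (chr1:72824503-72852474, plus strand) and Igfbp5 (chr1:72857932-72874884, minus strand) are neighbours whose 3′ ends face each other. Igf1 lies at chr10:87858265-87937042 (plus), Igf1r at chr7:67952827-68233668 (plus), Igfbp7 at chr5:77349240-77408041 (minus), Igfbp4 at chr11:99041244-99054392 (plus), Igfbp3 at chr11:7206086-7213923 (minus) and Igfbp6 at chr15:102144362-102149511 (plus). Igfbp7 overlaps Polr2b on the opposite strand, which had 19.84 to 55.3 TPM in every library, and the sources used here do not say that reads were counted by strand. Igf1 overlaps the antisense gene Igf1os, which was listed at 0 in all 14 libraries.

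The 250 bases before the RefSeq start (GRCm38.p6) were searched for short motifs, and are shown for Igfbp2, Igfbp4 and Igfbp7, because these 3 genes were high together with Igf1 in lung CD44low libraries. Capitals mark matches, on either strand, to the GC box GGGCGG, the CCAAT box CCAAT, the TATA box TATAAA, the AP-1 site TGANTCA and the STAT site TTCNNNGAA. The windows are chr1:72824230-72824479 (plus) for Igfbp2, chr11:99040994-99041243 (plus) for Igfbp4 and chr5:77408046-77408295 (minus) for Igfbp7. The window of Igf1, chr10:87860861-87861110 (plus), lies inside an exon of longer GENCODE transcripts of the gene and is not shown.
Igfbp2: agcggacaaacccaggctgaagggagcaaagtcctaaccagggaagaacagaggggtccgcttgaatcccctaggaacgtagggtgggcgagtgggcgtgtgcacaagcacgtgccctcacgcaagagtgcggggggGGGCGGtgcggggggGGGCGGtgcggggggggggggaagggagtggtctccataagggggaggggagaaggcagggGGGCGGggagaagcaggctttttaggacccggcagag
Igfbp4: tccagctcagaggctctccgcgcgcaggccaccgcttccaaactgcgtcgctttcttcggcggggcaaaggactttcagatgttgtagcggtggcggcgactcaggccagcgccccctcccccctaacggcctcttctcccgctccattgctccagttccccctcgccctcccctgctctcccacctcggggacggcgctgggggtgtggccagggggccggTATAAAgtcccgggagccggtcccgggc
Igfbp7: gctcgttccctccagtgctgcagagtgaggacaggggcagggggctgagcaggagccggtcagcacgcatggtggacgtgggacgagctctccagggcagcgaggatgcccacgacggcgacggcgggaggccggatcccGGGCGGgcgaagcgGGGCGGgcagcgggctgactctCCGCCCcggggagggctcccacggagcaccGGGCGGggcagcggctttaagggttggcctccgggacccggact

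No motif was found in all 4 windows. Igfbp2 had 3 and Igfbp7 had 4 GC boxes, a motif found in 32.9% of 27025 RefSeq promoters of the same length. Igfbp4 had a TATA box that began 28 bases before the start (13% of promoters hold the motif). Igf1 had a CCAAT box on the opposite strand (34.5% of promoters) and an AP-1 match that began 37 bases before the start (6.87% of promoters). The STAT site, found in 7.18% of promoters, was in the window of none of the 8 genes. The windows of Igfbp2, Igfbp4 and Igfbp7 held 67.2%, 69.2% and 74% G and C, and that of Igf1 held 52.8%, against a median of 52% over all promoters. Outside these 4 genes the share was 77.6% for Igf1r, which also had GC boxes, 73.2% for Igfbp3, 58.8% for Igfbp5 and 49.6% for Igfbp6. Such matches describe the letters and not binding.

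The labelled cell type was checked first, because the lung groups went against it. Cells had been sorted as EpCAMhigh, but Epcam itself was listed at 0 TPM in both lung CD44low libraries and at 0.23 and 0.86 TPM in the lung CD44high libraries, against 315 to 941 TPM in the other 10. Of a list of 10 epithelial genes, 7 (Epcam, Krt8, Krt19, Cdh1, Cldn4, Elf3 and Esrp1) were at 0 in both lung CD44low libraries, where the list summed to 1.74 to 2.36 TPM. The same sum was 15.8 to 87.6 TPM in lung CD44high, from 6782 up to 7628 in MFP and from 2199 up to 4449 in LN and BM. A list of 10 fibroblast genes summed to 4789 to 5230 TPM in lung CD44low, with 9 of the 10 at a mean of at least 1 TPM and Fap at 0. It summed to 103 to 216 TPM in lung CD44high, with Col1a2, Thy1 and Fap at 0, and to 0.5 to 46.2 TPM elsewhere. Dcn alone was at 4091 and 4315 TPM in lung CD44low and at 166 and 78.9 TPM in lung CD44high. Smooth muscle or myoepithelial genes summed to 820 to 901 TPM in lung CD44low, to 0.8 to 2.08 TPM in lung CD44high and to 595 to 656 TPM in MFP. The MFP sum was almost all Krt14, at 594 and 655 TPM, which was at 0 in lung CD44low. Acta2 led the lung CD44low sum, at 657 and 711 TPM, against 0.06 and 0 TPM in MFP. Cycling genes summed to 35.7 to 37.5 TPM in lung CD44low and 3.68 to 56.6 TPM in lung CD44high, against 485 to 4972 TPM elsewhere. In the single-cell libraries the same genes summed to 13.8 counts per 10000 in lungH (13.3 to 14.3), 4.13 in lungL (3.87 to 4.41) and 14.9 in lymphH (14.5 to 15.2), so the low level of bulk lung CD44high was not seen in lungH. Cd44 mRNA was 12.2 and 21.6 TPM in lung CD44low and 22 and 12.1 TPM in lung CD44high, so the libraries of these groups overlapped. The BM groups overlapped as well, at 43.8 and 74.9 TPM in CD44low and 50.5 and 49 TPM in CD44high. In LN it went against the labels, at 147 and 82.7 TPM in CD44low and 49 and 52.3 TPM in CD44high. Of the adipocyte list Adipoq was at 0 in every library, but the 4 genes summed to 56.9 to 103 TPM in lung CD44low, 12.3 to 14 TPM in lung CD44high and 0.34 to 8.89 TPM elsewhere. Macrophage genes summed to 45.8 to 49.3 TPM in lung CD44low, 52.4 to 66.4 TPM in lung CD44high and 21.9 to 268 TPM elsewhere, and Adgre1 was at 0 in every library. Endothelial and lymphocyte lists stayed at or below 0.28 and 0.47 TPM in every library. The part of this difference in cell type markers in the lung results that follow was not tested, and fewer cells of a type cannot be told apart from less RNA per cell in bulk libraries.

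Genes that reached 1 TPM in 2 or more libraries, 15348 in all, were fitted with limma as log2(TPM + 1). A gene was called higher or lower where its log2 fold change exceeded 2 in size and p, adjusted by Benjamini-Hochberg over these genes, was under 0.05. Of the 8 genes, 6 passed this filter, and Igfbp3 and Igfbp6 did not.

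Igf1, the ligand, was highest in lung. It was listed at 0 TPM in both MFP libraries, at 2.07 and 0 TPM in LN CD44low, 0.37 and 0.02 TPM in LN CD44high, 1.06 and 1.71 TPM in BM CD44low and 0.05 and 0.89 TPM in BM CD44high. Lung CD44low libraries had 80.2 and 92.5 TPM and lung CD44high libraries 5.49 and 6.88 TPM, so both lung groups stood above the other 10 libraries without overlap. With MFP at 0 no fold is given, but the difference from MFP passed the test in lung CD44low (limma adjusted p = 3.67e-06) and in lung CD44high (adjusted p = 0.00142). Within lung, CD44high libraries were lower by a log2 fold change of -3.61 ± 0.486 (SE, adjusted p = 0.000362), a call lost with a pseudocount of 0.1 in place of 1 (-3.79, adjusted p = 0.0566).

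Igf1r, the receptor, was the only one of the 8 genes at or above 1 TPM in all 14 libraries. It lay between 2.48 and 5.28 TPM in the 10 MFP, LN and BM libraries, at 8.23 and 10.4 TPM in lung CD44low and at 19.1 and 16.1 TPM in lung CD44high. The receptor was thus highest where the ligand was at its lower lung level, and the 3 ranges did not overlap. Against MFP the log2 difference was 1.78 ± 0.346 in lung CD44high (adjusted p = 0.00295) and 0.93 in lung CD44low (adjusted p = 0.0522), both under the fold threshold, so Igf1r was called in no comparison. The difference between lung CD44high and CD44low, 0.85 with a 95% interval of 0.08 to 1.62, missed the threshold (adjusted p = 0.0922). Among the MFP, LN and BM groups the receptor did not differ beyond its spread, with log2 differences from MFP of -0.24 to -0.05.

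Igfbp4 was the most abundant binding protein transcript of the lung libraries in TPM, which is a level per transcript length. Its protein is an inhibitor of IGF action and the best known substrate of PAPPA. Lung CD44low libraries had 2317 and 1520 TPM and lung CD44high libraries 206 and 71.4 TPM. MFP libraries had 0.13 and 0.11 TPM, LN CD44low 0.79 and 7.88, LN CD44high 3.12 and 2.46, BM CD44low 6.6 and 16.2, and BM CD44high 15.2 and 6.7 TPM. Every metastatic library was therefore above both MFP libraries. The log2 fold change from MFP was 10.71 ± 0.757 in lung CD44low (adjusted p = 2.27e-06), 6.77 in lung CD44high (adjusted p = 9.96e-05), 3.35 in BM CD44low (adjusted p = 0.0109) and 3.32 in BM CD44high (adjusted p = 0.0102). MFP levels were far under the pseudocount of 1, and with a pseudocount of 0.1 these differences were 13.06, 9.11, 5.57 and 5.54. The BM CD44low call was lost when only the groups compared were fitted (adjusted p = 0.0568). Both BM calls were lost when either MFP library was left out (adjusted p = 0.0534 to 0.0615), and also without BM CD44low replicate 2 (adjusted p = 0.0662) or BM CD44high replicate 1 (adjusted p = 0.0808), respectively. In LN the differences from MFP were 1.83 in CD44low (adjusted p = 0.154) and 1.75 in CD44high (adjusted p = 0.126). Both were called with a pseudocount of 0.1, at 3.6 (adjusted p = 0.0275) and 3.71 (adjusted p = 0.0168), and LN CD44low also without its replicate 1 (2.99, adjusted p = 0.0217).

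Igfbp7, a secreted protein of the IGFBP superfamily with low affinity for IGF, had the widest difference within an organ. It was at 1485 and 1500 TPM in lung CD44low and at 0.13 and 0 TPM in lung CD44high, with a log2 difference of -10.46 ± 1.17 (adjusted p = 9.9e-05). Its size depends on the pseudocount, since lung CD44high was at or near 0, and was -13.26 with a pseudocount of 0.1. MFP had 3.64 and 0.64 TPM, LN CD44low 4.59 and 0.7 TPM, LN CD44high 3.1 and 3.8 TPM and BM CD44high 2.3 and 1.74 TPM. The BM CD44low libraries were 1.04 and 46.2 TPM, so 1 of the 2 clones stood far above the other. Without replicate 1 of BM CD44low the log2 difference from MFP was 4.1 and passed the test (adjusted p = 0.00295), and without replicate 2 it was -0.44 (adjusted p = 0.733), against 1.83 with both (adjusted p = 0.304).

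Igfbp2, which binds IGF2 with high affinity, was at 39.8 and 58.6 TPM in lung CD44low and listed at 0 in both lung CD44high libraries (adjusted p = 6.07e-07). It was at 0.14 and 0 TPM in MFP, 0.17 and 1.08 in LN CD44low, 1.2 and 0.74 in LN CD44high, 2.1 and 2.38 in BM CD44low and 4.97 and 4.56 TPM in BM CD44high. Both groups from BM were above every MFP and LN library. BM CD44high was called against MFP (log2 fold change 2.43 ± 0.316, adjusted p = 0.000445), whereas BM CD44low, at 1.6, passed the adjusted p (0.00544) but not the fold threshold. With a pseudocount of 0.1 these log2 differences were 4.97 and 3.91, and BM CD44low was called as well (adjusted p = 0.00287).

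Igfbp5 showed the opposite distribution, present in LN and BM and near 0 in MFP and lung. LN CD44low libraries had 1.16 and 1.8 TPM, LN CD44high 7.75 and 1.43 TPM, BM CD44low 4.96 and 7.91 TPM and BM CD44high 5.48 and 3.39 TPM. Igfbp5 was listed at 0 in both MFP and both lung CD44high libraries and was at 0.03 and 0 TPM in lung CD44low. All 8 LN and BM libraries were thus above all 6 others. The differences from MFP passed the test in LN CD44high (adjusted p = 0.0105), BM CD44low (adjusted p = 0.00269) and BM CD44high (adjusted p = 0.00611), and not in LN CD44low (adjusted p = 0.124), which was called with a pseudocount of 0.1 (adjusted p = 0.00399). The LN CD44high call was lost without LN CD44high replicate 1, where the log2 difference fell to 1.28, without either MFP library (adjusted p = 0.0571 and 0.0597), and when only the groups compared were fitted (adjusted p = 0.123). The BM CD44high call was lost without BM CD44high replicate 1 (adjusted p = 0.0508).

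Igfbp3, the main carrier of IGF in serum, was at 1.66 and 0.82 TPM in MFP, at 0.22 and 0.52 TPM in lung CD44low and at 0 to 0.05 TPM in the other 10 libraries. Igfbp6, which prefers IGF2, did not exceed 0.4 TPM in any library. Neither gene reached the filter, so neither was in the fit of 15348 genes. In the limma fit with no filter on low TPM (31466 genes) neither was called in any comparison, since every difference was under the fold threshold. There Igfbp3 was below MFP in all 6 other groups, by -1.14 to -0.69 on the log2(TPM + 1) scale (adjusted p = 0.0015 to 0.0128). In the same fit Igfbp6 differed by 0.4 between lung CD44low and MFP (adjusted p = 0.00319) and by -0.4 between lung CD44high and CD44low (adjusted p = 0.00463).

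**Figure D1:**
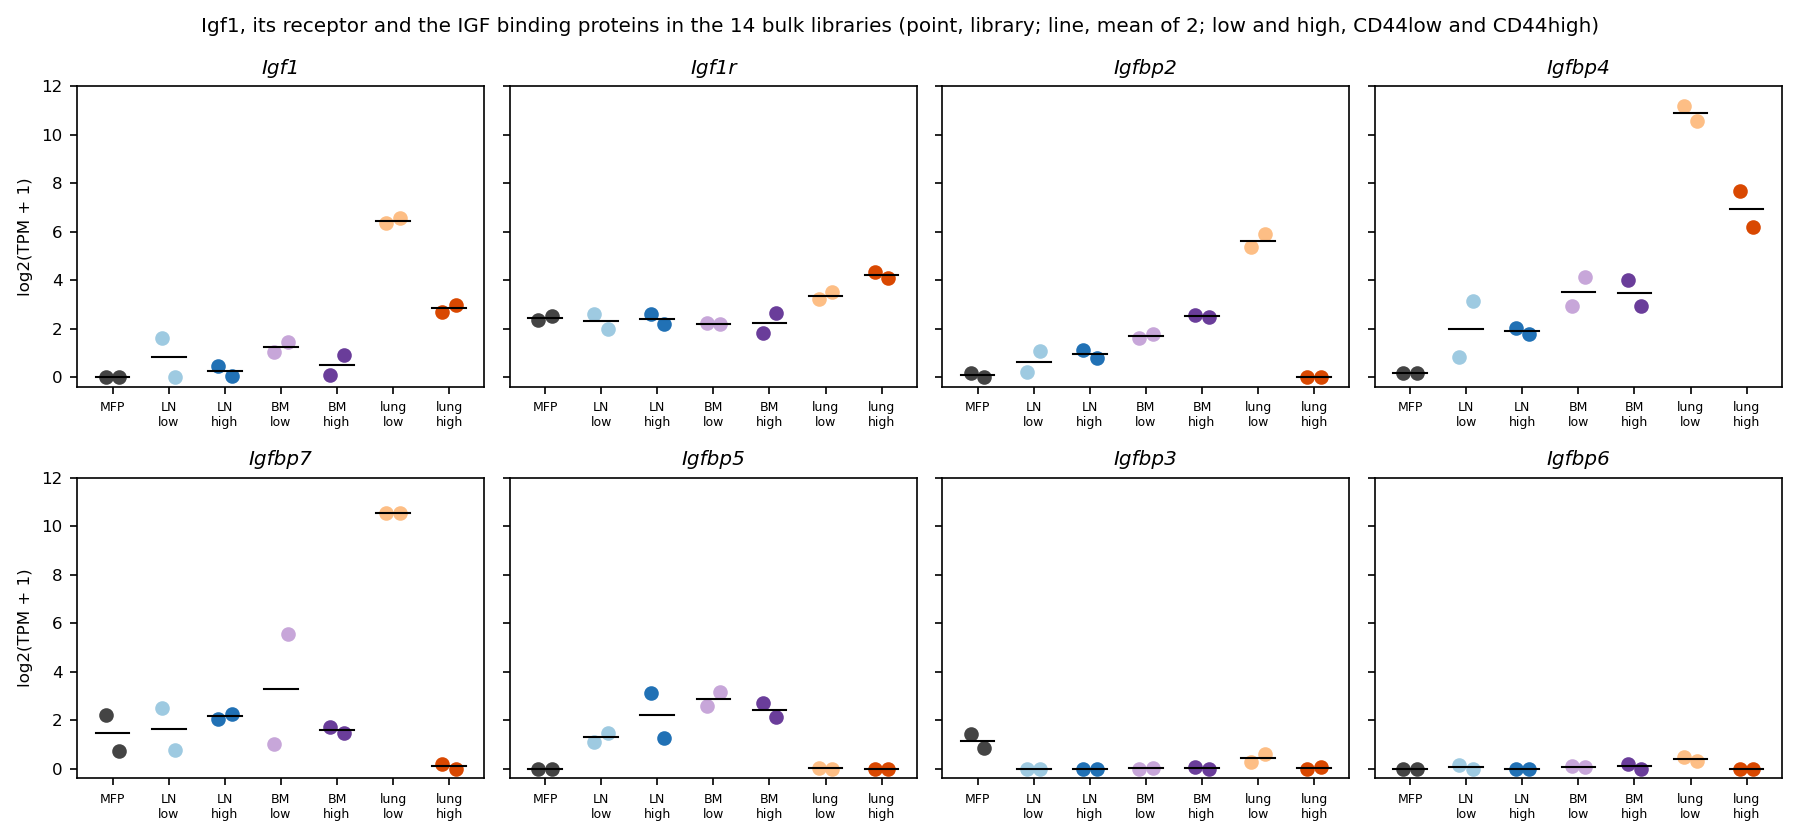
Level of each of the 8 genes as log2(TPM + 1) in the 14 bulk libraries, with a point for each library and a line at the mean of the 2 libraries of a group. Igf1, Igfbp2, Igfbp4 and Igfbp7 peak in lung CD44low, Igf1r in lung CD44high, and Igfbp5 is found in LN and BM.

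The summed TPM of the 6 binding proteins showed how the mixture changed with the organ. The sum was 1.57 to 5.57 TPM in MFP, 6.81 to 72.8 TPM in LN and BM, 3079 to 3843 TPM in lung CD44low and 71.4 to 206 TPM in lung CD44high. In lung CD44low Igfbp4 made up 60.3% and 49.4% of the sum and Igfbp7 38.7% and 48.7%. In lung CD44high Igfbp4 made up 99.9% in both libraries. In LN and BM the leading gene differed between libraries, and Igfbp5 made up between 10.9% and 51.1% of the sum.

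Calls for the tested genes were read against the share of all 15348 genes called. Against MFP, 4 of 6 (Igf1, Igfbp2, Igfbp4 and Igfbp7) were called higher in lung CD44low, where 11.2% of all genes rose and 7.62% fell by the same rule. For lung CD44high, 2 of 6 (Igf1 and Igfbp4) were called higher, with 5.42% of all genes higher and 8.03% lower. BM CD44high had 3 of 6 higher (background 3.64%), BM CD44low 2 of 6 (background 3.99%) and LN CD44high 1 of 6 (background 2.44%). LN CD44low had 0 of 6 called by limma (background 4.79% in either direction), with 2, Igfbp4 and Igfbp5, at an unadjusted p under 0.05. None of the 6 was called lower than MFP in any group. These 6 comparisons share the same MFP libraries.

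Within lung, 4 of 6 (Igf1, Igfbp2, Igfbp4 and Igfbp7) were called lower in CD44high than in CD44low cells, where 8.8% of all genes were called lower and 2.49% higher. Igfbp4 fell by 3.94 ± 0.757 on the log2 scale (adjusted p = 0.00339). In LN 0 of 6 were called between CD44high and CD44low by limma (background 0.208% in either direction), and 0 had an unadjusted p under 0.05. In BM 0 of 6 were called (background 0.104%), and 1, Igfbp2, had an unadjusted p under 0.05, with a difference of 0.83 (adjusted p = 0.624). The background itself moved with single clones, from 32 to 103 genes in LN without LN CD44low replicate 2, to 12 without LN CD44high replicate 1, and from 16 to 975 genes in BM without BM CD44low replicate 1. For Igf1 the CD44 difference was -0.57 in LN with a 95% interval of -1.65 to 0.52, and -0.75 in BM with an interval of -1.83 to 0.34. The interaction contrast, the CD44 difference in lung minus the mean of those in LN and BM, was called lower for the same 4 genes (background 6.57%). It was -2.95 for Igf1 (adjusted p = 0.00593) and -3.88 for Igfbp4 (adjusted p = 0.0145). The Igf1 call was lost with a pseudocount of 0.1 (adjusted p = 0.35), and the Igfbp4 call without lung CD44low replicate 1 (adjusted p = 0.0831) or lung CD44high replicate 2 (adjusted p = 0.0688). Over the 12 metastatic libraries with organ as a term, 0 of 6 were called between CD44high and CD44low (background 0.0%), with Igf1 and Igfbp7 at an unadjusted p under 0.05 and adjusted p of 0.233 and 0.244.

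**Figure D2:**
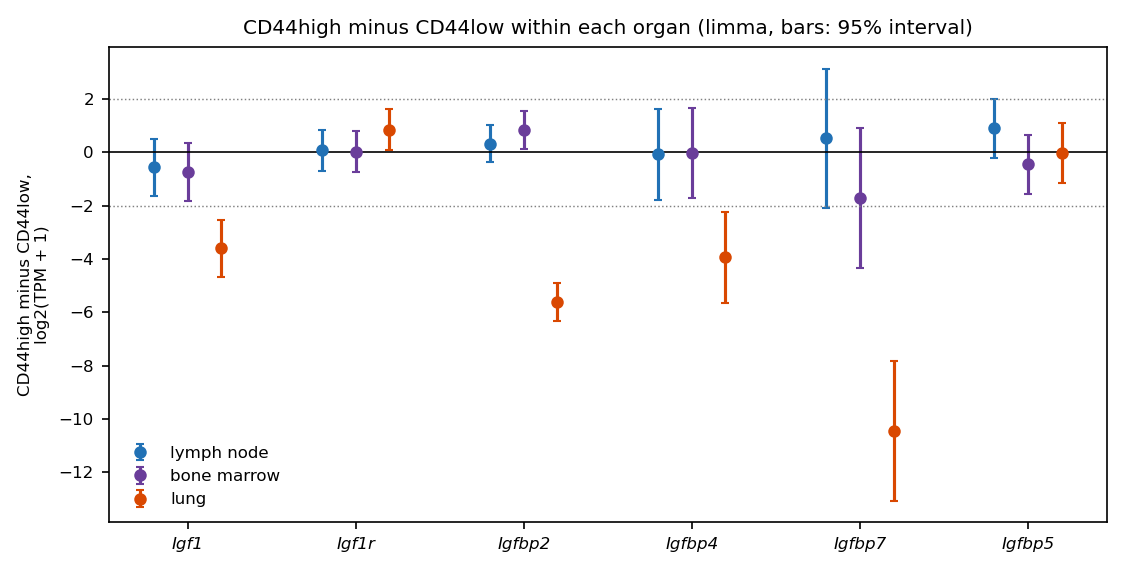
CD44high minus CD44low difference of log2(TPM + 1) for the 6 tested genes in lymph node, bone marrow and lung, with 95% intervals from limma and dotted lines at the fold threshold. The lung values of Igf1, Igfbp2, Igfbp4 and Igfbp7 lie between -3.61 and -10.46, apart from the lymph node and bone marrow values of the same genes.

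Taking both CD44 states together, the 4 lung libraries were compared with the 8 from LN and BM. Igf1 (log2 fold change 3.95 ± 0.297), Igfbp4 (6.18 ± 0.464) and Igfbp7 (3.15 ± 0.717) were called higher in lung, where 7.13% of all genes were. Igfbp5 was called lower (adjusted p = 0.000178), with 5.54% of all genes lower. It was listed at 0 in 3 of the 4 lung libraries, so the difference of -2.19 ± 0.305 on the log2(TPM + 1) scale is no fold change (-5.04 with a pseudocount of 0.1), and the call was lost without LN CD44high replicate 1, where the value was -1.95. For Igfbp7 this mean joins a group at about 1500 TPM to a group near 0, and the call was lost with a pseudocount of 0.1 (adjusted p = 0.0596). Igf1r was higher by 1.51 ± 0.212 (adjusted p = 0.000187), under the fold threshold.

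The genes most like each tested gene over the 14 libraries, were taken by the Pearson correlation of log2(TPM + 1). They were Cd59b (r = 0.985) and P3h3, a collagen prolyl hydroxylase (0.975), for Igf1, and Fbxw2 (0.958) and Crim1 (0.958) for Igf1r. For Igfbp4 they were Rgcc (0.98) and the selenium carrier Selenop (0.973), for Igfbp2 Cyp27a1 (0.979) and the matrix protein gene Emilin1 (0.977), and for Igfbp7 Adgra2 (0.98) and Sall2 (0.978). For Igfbp5 they were the fibrillar collagen gene Col27a1 (0.977) and the kinase gene Stk26 (0.975), which was at 1.16 to 27.7 TPM in LN and BM and at most 0.05 TPM in MFP and lung. Emilin1 followed Igfbp2 through BM as well, at 10.4 and 8.93 TPM in BM CD44high. Libraries of 1 group share their origin, so these values only describe likeness. Among the 6 genes themselves r was 0.914 between Igf1 and Igfbp4, 0.877 between Igfbp2 and Igfbp7 and -0.634 between Igf1r and Igfbp5.

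Of a list of 38 other IGF pathway genes, 31 passed the filter. For lung CD44low against MFP the calls were 8 higher and 1 lower, beside 11.2% and 7.62% of all genes, with a median log2 difference over the 31 of 1.1 against 0 over all genes. In lung CD44high 8 were higher and 2 lower, beside 5.42% and 8.03% of all genes, with a median of 0.89 against -0.04. Against MFP the LN CD44low and BM CD44low groups had 1 gene called lower and the LN CD44high and BM CD44high groups 2, with 0 higher. Of all genes 2.72%, 3.17%, 3.68% and 4.03% were called lower in these groups in that order, so the counts were near the background, and 2.07%, 3.99%, 2.44% and 3.64% were called higher. Between CD44 states 0 of 31 were called in LN or BM, and 2 were higher and 6 lower in lung CD44high than in lung CD44low, beside 2.49% and 8.8% of all genes.

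The second ligand, Igf2, followed Igf1. It was at 196 and 224 TPM in lung CD44low and 16.5 and 9.42 TPM in lung CD44high. MFP had 1.76 and 0.13 TPM, and LN and BM at most 0.08 TPM. The log2 fold change between lung CD44high and CD44low was -3.96 ± 0.398 (adjusted p = 4.46e-05).

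Proteases of the binding proteins separated the lung groups in both directions. Htra1, a secreted serine protease that cuts IGF binding proteins, was at 2657 and 3170 TPM in lung CD44high, against 75 and 50.6 TPM in lung CD44low and 67.7 to 321 TPM in the other 10 libraries. It rose by 5.54 ± 0.419 on the log2 scale between CD44low and CD44high lung cells (adjusted p = 5.54e-06). Pappa2, a metalloprotease that cleaves IGFBP3 and IGFBP5, was at 39.2 and 31.5 TPM in lung CD44high, 1.95 and 1.99 TPM in lung CD44low and listed at 0 in the other 10 libraries. Pappa ran the other way, at 9.02 and 9.32 TPM in lung CD44low and 1.53 and 1.16 TPM in lung CD44high (-2.12 ± 0.171, adjusted p = 8.56e-06), with at most 0.26 TPM elsewhere. Adam12, another protease of IGFBP3 and IGFBP5, was called lower than MFP in the LN, BM and lung CD44high groups, with log2 differences of -2.02 to -2.67. Lung CD44low, at -1.99 (adjusted p = 0.0309), missed only the fold threshold, BM CD44low was at -1.58 and LN CD44low at -1.3, and no difference between CD44high and CD44low was called within an organ (adjusted p = 0.487 to 0.797). In lung CD44high it was at 0 and 0.01 TPM against 8.96 and 3.13 TPM in MFP.

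Inhibitors of the pappalysins were also highest in lung. Stc1 was at 213 and 157 TPM in lung CD44low and 6.41 and 16.9 TPM in lung CD44high (-4 ± 0.368, adjusted p = 2.4e-05), and at most 0.18 TPM elsewhere. Stc2 was at 9.93 and 13.6 TPM in lung CD44low and 16.7 and 32.8 TPM in lung CD44high, against at most 0.34 TPM elsewhere.

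Among adaptors, Irs1, which couples the receptor to PI3 kinase, was all but missing from LN and BM. MFP libraries had 4.37 and 3.55 TPM. It was at 4.05 and 5.36 TPM in lung CD44low, 18.3 and 13.8 TPM in lung CD44high and at most 0.08 TPM in the 8 LN and BM libraries. The fall from MFP was between 2.23 and 2.31 on the log2(TPM + 1) scale in the 4 groups (adjusted p = 7.09e-05 to 9.23e-05). Irs2 was not called in any comparison, at 2.47 to 5.12 TPM in LN and BM. Grb10, an imprinted adaptor that dampens signaling by the receptor, was at 187 and 269 TPM in lung CD44low, 2.38 and 1.18 TPM in lung CD44high and listed at 0 in all 8 LN and BM libraries. Grb14, a related adaptor, was at 192 to 303 TPM in the 4 lung libraries and 24.2 to 64.9 TPM elsewhere. Pik3r1, the regulatory subunit of PI3 kinase, was called higher than MFP in lung CD44high (27.7 and 48.6 against 6.3 and 7.51 TPM), and the transcription factor gene Foxo3 in both lung groups. Pdk1, listed here by symbol, encodes a kinase of pyruvate dehydrogenase rather than of AKT, and was called lower in lung CD44high. Of the mRNA binding proteins, Igf2bp3 was called higher than MFP in lung CD44low (6.64 and 7.17 TPM), and Igf2bp2 was called lower in lung CD44high than in lung CD44low.

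**Figure D3:**
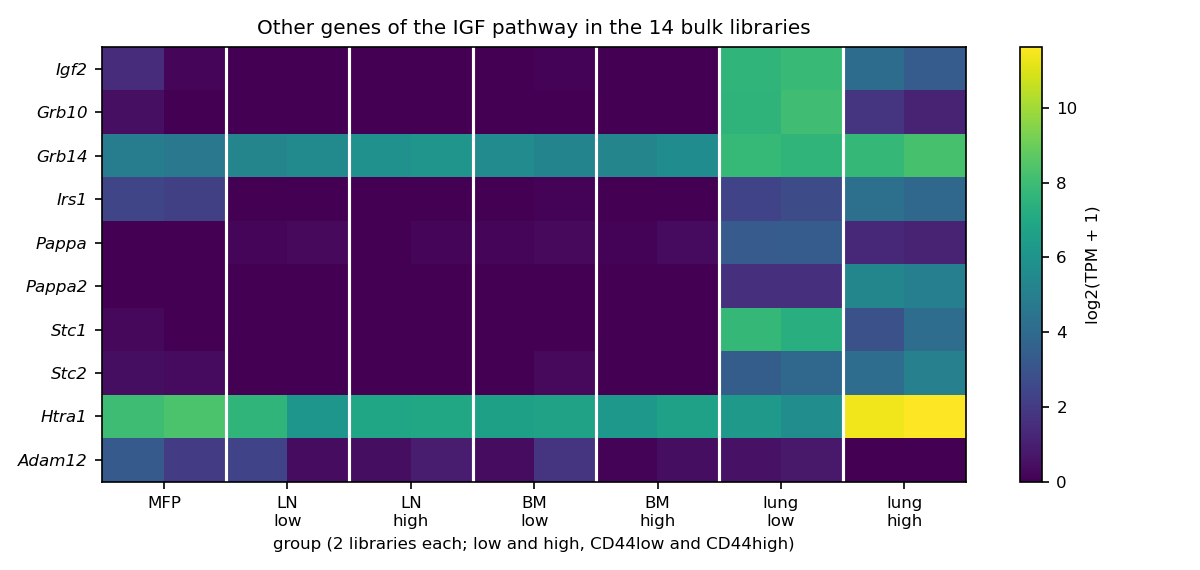
Level of 10 other genes of the IGF pathway as log2(TPM + 1) on a color scale, with a column for each of the 14 bulk libraries in the order of the 7 groups. Igf2, Grb10, Stc1 and Pappa are high in lung CD44low, Htra1 and Pappa2 in lung CD44high, and Irs1 is near 0 in lymph node and bone marrow.

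The single-cell libraries showed how the 8 genes were distributed among cells. After cells with more than 250 genes and under 10% of counts in mitochondrial genes were kept, 1236 of 3623 barcodes remained in lungH, 348 of 2808 in lungL and 2562 of 3297 in lymphH. The median cell had 557 counts in lungH, 4011 in lungL and 585 in lymphH. Depth fell into shallow and deep cells, with 194, 206 and 254 cells of at least 2000 counts, which held 73.1%, 95% and 74.5% of all counts. Barcodes are running numbers in these matrices, so barcodes shared between libraries could not be counted. With 1 library each, the values below compare libraries and not conditions, no test was made, and the intervals cover counting error only. The epithelial genes summed to 4.27 counts per 10000 in lungH, 0.878 in lungL and 9.54 in lymphH. Krt8 and Krt18 held 369 and 573 of the 945 counts of lungH. Per 10000, Krt18 was higher in lungH than in lymphH (2.59 against 1.17) and Krt8 lower (1.67 against 2.8). The epithelial gene Epcam had 3 counts in lungH, 0 in lungL and 936 in lymphH. Cd44, the other gene of the sort, went against the label of the library called CD44low, at 8.51 counts per 10000 in lungL (8.13 to 8.9), 4.99 in lungH (4.7 to 5.29) and 4.49 in lymphH (4.31 to 4.67). Fibroblast genes summed to 22.1 counts per 10000 in lungL against 0.669 in lungH and 0.132 in lymphH. In lungL Col1a2 led the sum with 3192 counts, and Dcn had 22 counts and Lum 0. In bulk lung CD44low, in contrast, Dcn led the sum and Lum was at 362 and 217 TPM.

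Igfbp4 had 2919 counts in lungL, 282 in lungH and 67 in lymphH. These are 13.1 counts per 10000 (exact Poisson 95% interval 12.7 to 13.6), 1.28 (1.13 to 1.43) and 0.127 (0.098 to 0.161). The level in lungL was 10.3 times that in lungH (interval 9.12 to 11.7), and that in lungH was 10.1 times that in lymphH (7.69 to 13.3). The order was that of the bulk groups of the same names.

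Igfbp7 had 5.86 counts per 10000 in lungL (5.54 to 6.19), 0.498 in lungH (0.409 to 0.6) and 0.199 in lymphH (0.162 to 0.24), a ratio of 11.8 between lungL and lungH (9.69 to 14.4). Counts of Igfbp7 were present in 50 lungH cells, whereas the bulk lung CD44high libraries had 0.13 and 0 TPM. The lungH level was 2.51 times that in lymphH (1.9 to 3.31), the reverse of the bulk order, where LN CD44high had 3.1 and 3.8 TPM.

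Igf1 had 55 counts in lungL and 39 in lungH, or 0.248 (0.187 to 0.322) and 0.176 (0.126 to 0.241) per 10000. Their ratio of 1.4 had an interval of 0.915 to 2.17, so a difference was not detectable at this depth. In lymphH Igf1 had 0 counts, which allows up to 0.00567 per 10000 at 3 counts of the total. The lungL and lungH values were thus closer than the bulk values of the matching groups, which were above 80 and under 7 TPM.

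Igf1r had 2.36 counts per 10000 in lungL (2.16 to 2.57), 1.43 in lungH (1.28 to 1.6) and 0.503 in lymphH (0.444 to 0.567). The lungL value was 1.65 times the lungH value (1.43 to 1.9), the reverse of the order of the bulk lung groups, and both lung values were above lymphH. Igfbp5 was highest in lymphH, with 171 counts or 0.323 per 10000 (0.277 to 0.376), against 22 counts in lungL and 0 in lungH. The 22 counts of lungL came from 3 cells. Igfbp2 had 3 counts in lungL and 0 in the other libraries, although the bulk lung CD44low libraries had 39.8 and 58.6 TPM. A count of 0 allows up to 0.0136 counts per 10000 in lungH and 0.00567 in lymphH. Igfbp3 had 14, 2 and 0 counts in lungL, lungH and lymphH, and Igfbp6 had 1 count in each.

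**Figure D4:**
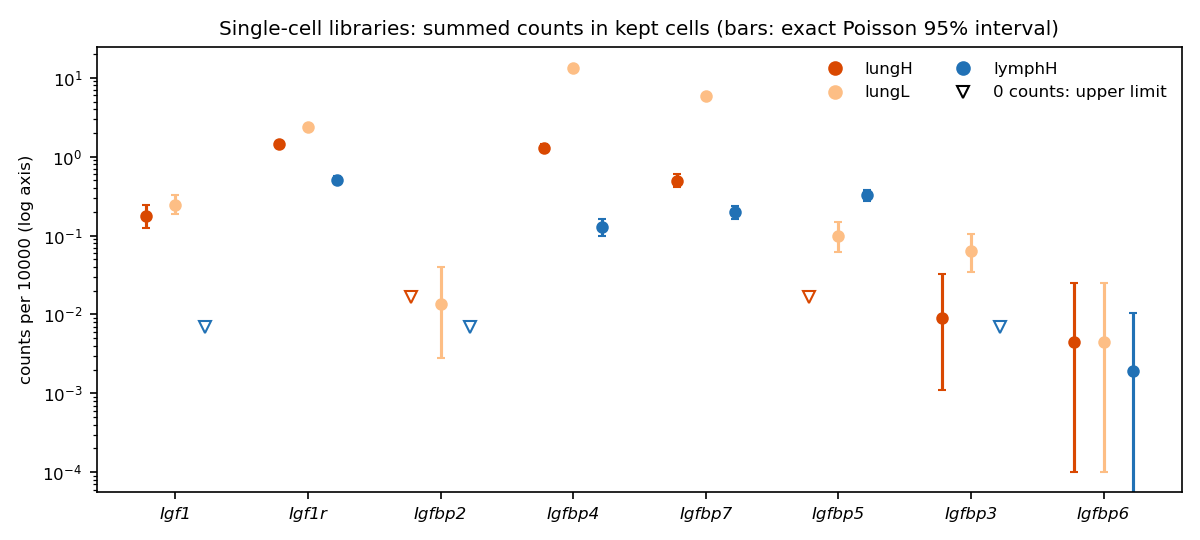
Summed counts per 10000 of each gene in the kept cells of the 3 single-cell libraries on a log axis, with exact Poisson 95% intervals and open triangles at the upper limit where no count was seen. Igfbp4 and Igfbp7 are highest in lungL and Igfbp5 in lymphH.

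The share of cells with a count was compared after each cell was thinned to 500 counts, which left out 288 lungH, 34 lungL and 659 lymphH cells. Igfbp4 was then found in 34.1% of lungL cells (exact binomial 95% interval 28.8% to 39.6%), 4.96% of lungH (3.67% to 6.54%) and 0.578% of lymphH cells (0.289% to 1.03%). Without thinning these shares were 55.2%, 10.5% and 2.19%. Igfbp7 was found in 23.2%, 1.05% and 0.841% of thinned cells, and in 57.2%, 4.05% and 2.62% of cells without thinning. The thinned Igfbp7 shares of lungH (0.507% to 1.93%) and lymphH (0.481% to 1.36%) had overlapping intervals. Free RNA was not measured, and the thinned Igfbp7 shares of lungH and lymphH are not read as expression. Igf1r was found in 11.1%, 4.96% and 1.63% of thinned cells and in 46%, 10.9% and 6.44% of cells without thinning.

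In the 206 lungL cells with at least 2000 counts, Igfbp4 and Igfbp7 were seen together in 134 cells, Igfbp4 alone in 16, Igfbp7 alone in 38 and neither in 18. Of the 29 such cells with Igf1, 26 also had Igfbp4 and 22 also had Igf1r, beside 150 and 147 of all 206 cells. In the 194 lungH cells of this depth 71 had Igfbp4, 83 had Igf1r and 13 had Igf1. In the 254 lymphH cells 65 had Igfbp5, 39 had Igfbp4 and 15 had both.

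Cells were clustered without the 8 genes and without the 38 pathway genes, which gave 12 clusters. Within lungL the binding proteins were unevenly spread. LungL cluster 1 (143 cells, median 11601 counts, led by Acta2, Grem1 and Bgn) had 16.6 counts of Igfbp4 per 10000 (16 to 17.2), found in 89.5% of its cells. LungL cluster 3 (41 cells, median 9114 counts, led by Prl2c3, Cyp1b1 and Mmp3) had 0.186 (0.075 to 0.384), found in 17.1% of its cells, a ratio of 89.1 with an interval of 43.2 to 222. Igfbp7 differed less between these clusters, at 6.5 (6.11 to 6.89) and 1.68 per 10000 (1.29 to 2.15). Igf1 had 51 counts in cluster 1 and 0 in cluster 3, and all 3 Igfbp2 counts of the library were in cluster 3. Igf1r was 2.55 and 0.852 per 10000. LungL cluster 2 (139 cells, median 736 counts, led by Col1a1, Col5a2 and Col1a2) held mostly shallow cells and had 7.2 counts of Igfbp4 and 8.02 of Igfbp7 per 10000. Fibroblast genes summed to 23.2, 57.6 and 0.612 counts per 10000 in lungL clusters 1, 2 and 3, smooth muscle or myoepithelial genes to 78, 70.7 and 2.16, epithelial genes to 0.233, 0.234 and 3.94, and cycling genes to 1.95, 3.04 and 14.5. Igfbp4 was therefore high in the lungL clusters that held these mesenchymal markers, and low in the cluster where those markers were low.

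LungH cluster 3 (182 cells, led by Aldh3a1, Ctla2a and 4930486L24Rik) had 1.27 counts of Igfbp4, 0.589 of Igfbp7, 0.209 of Igf1 and 1.25 of Igf1r per 10000, with fibroblast genes at 0.576 per 10000. LungH cluster 4 (28 cells, led by Tsix, Ephb6 and Ahnak2) had the highest Igf1r level of the 12 clusters, 6.04 per 10000 (4.08 to 8.62) from 30 counts, and 3.7 was the highest level when fewer clusters were made. LymphH cluster 5 (270 cells, median 16066 counts) was led by Gm37167, Gm47652 and Sirt5, and Igfbp5 was at 0.349 per 10000 (0.293 to 0.412) and found in 24.4% of cells. The 6 other clusters of lungH and lymphH cells had medians of 532 to 569 counts, and their leading genes, among them AY036118, AA465934 and Gm10073, name no cell type. No cluster was given a cell type name.

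**Figure D5:**
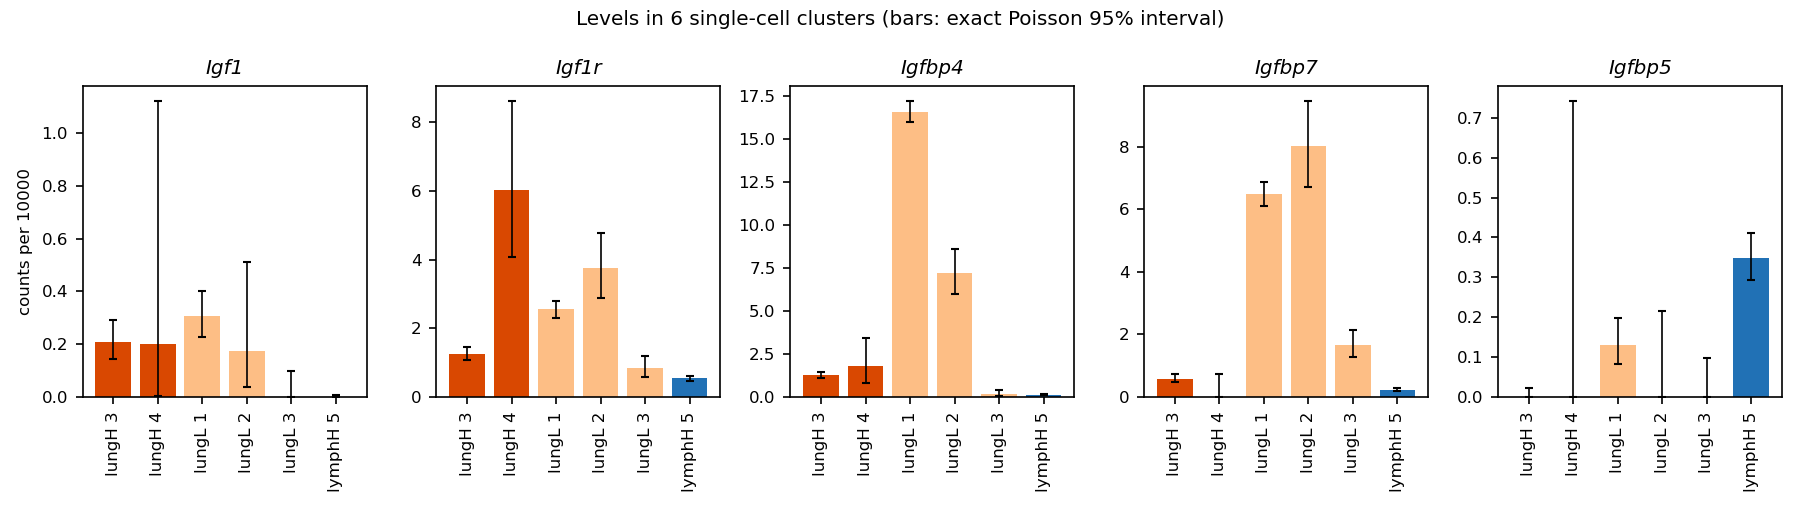
Counts per 10000 of 5 genes in 6 clusters of the single-cell libraries, 2 of lungH, 3 of lungL and 1 of lymphH, with exact Poisson 95% intervals (a bar of height 0 with an interval had 0 counts). Igfbp4 is high in lungL clusters 1 and 2 and near 0 in lungL cluster 3.

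Pathway genes in the single-cell libraries could be set beside the bulk values. Htra1 had 7.29 counts per 10000 in lungH (6.94 to 7.66), 0.45 in lungL and 0.628 in lymphH, and was 11.6 times higher in lungH than in lymphH (10.3 to 13.1). Grb10 had 592 counts in lungL, 78 in lungH and 0 in lymphH, a ratio of 7.56 between the lung libraries (5.96 to 9.69). Igf2, in contrast, had 17 counts in lungL and 27 in lungH (ratio 0.627, interval 0.321 to 1.19), where the bulk lung CD44low libraries were far above lung CD44high. Irs1 had 3 counts in the 5287425 counts of lymphH, against 23 in lungL and 16 in lungH. Grb14 ran against the bulk values, at 0.149 counts per 10000 in lungL (0.102 to 0.209), 0.498 in lungH (0.409 to 0.6) and 0.857 in lymphH (0.78 to 0.939). The lungL level was 0.173 times (0.118 to 0.247) and the lungH level 0.581 times (0.467 to 0.717) that of lymphH, whereas all 4 bulk lung libraries were above LN CD44high.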

How the data were processed

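Bulk RNA was measured in 14 libraries and single cells in 3. Bulk cDNA came from SMART-seq2 in a changed form, reads went through STAR (mm10) and RSEM, and the authors deposited TPM values. TPM keeps no depth, so counting error is unknown for each library. For single cells (ddSeq, SureCell) the authors quantified with kallisto and deposited whole-number counts per gene and barcode, unfiltered. Versions are not given in the sources used here.

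The 15348 genes that reached 1 TPM in 2 or more libraries were tested as log2(TPM + 1) with limma 3.58.1 (eBayes, trend; R 4.3.3) in a fit of 7 groups, which left 7 degrees of freedom. Adjusted p is Benjamini-Hochberg over all tested genes. Cells with over 250 genes and under 10% mitochondrial counts were clustered with leidenalg at resolution 0.8 on 20 principal components of 2000 variable genes and 15 neighbours. No doublet caller was run, and whether doublets had been removed is not given in the sources used here. Clusters are led by the 3 genes with the highest ratio to other cells after 0.5 per 10000 was added. Named genes are the 8 genes, the called genes of the pathway list, 2 genes most like each tested gene, and leading genes of clusters. Irs2, which was not called, was named after its values were seen. Ratios of counts have exact conditional binomial intervals. The genes and lists were chosen with earlier results of these data known. Alternatives were another pseudocount, filters, scaling, a replicate block, subsets of groups or libraries and, for single cells, other filters and resolutions.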

Additional observations from a re-analysis of the deposited data

Results flagged for a closer look

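The CD44high minus CD44low difference in lung was unlike the mean of those in LN and BM for 4 of the 6 tested genes, by the interaction contrast of limma over all 15348 genes. The contrast was negative in all 4, and 6.57% of all genes were called lower by it and 3.02% higher. On the log2(TPM + 1) scale this contrast was -2.95 for Igf1 (SE 0.595, adjusted p = 0.00593), -6.2 for Igfbp2 (SE 0.387, adjusted p = 1.98e-06), -3.88 for Igfbp4 (SE 0.927, adjusted p = 0.0145) and -9.87 for Igfbp7 (SE 1.43, adjusted p = 0.000822). Both lung CD44high libraries were below both lung CD44low libraries for each of the 4 genes. Igfbp2 was listed at 0 in both lung CD44high libraries, so its contrast depends on the pseudocount and is no fold change. Igfbp7 was at 0.13 and 0 TPM there, and its contrast was -12.8 with a pseudocount of 0.1. The fibroblast list moved with it, at 4789 to 5230 TPM in lung CD44low and 103 to 216 TPM in lung CD44high, mostly from Dcn. Its part in these contrasts was not tested.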

How the results depend on the processing

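Of 504 alternative fits of the 24 called differences, 486 kept direction and call, 18 lost the call and 0 reversed. Many of these fits could not move the fold change, since they left out a library of a group outside the comparison or changed only p. The share that kept the call is therefore no measure of robustness. With a pseudocount of 0.1, 2 genes were called in LN CD44low (Igfbp4 and Igfbp5 gained), 3 in LN CD44high (Igfbp4 and Igfbp2 gained) and 3 in BM CD44low (Igfbp2 gained) against MFP, where the calls over all 15348 genes rose as well, from 735 to 1430, from 940 to 1876 and from 1099 to 2055. At the same setting calls were lost for Igf1 between the lung groups (-3.79, adjusted p = 0.0566) and in the interaction contrast (-2.35, adjusted p = 0.35) and for Igfbp7 between lung and LN with BM (2.23, adjusted p = 0.0596). With only the groups compared in the fit, 0 genes were called in LN CD44high and 1 in BM CD44low against MFP. The calls over all genes fell there from 940 to 871 and from 1099 to 660. An unadjusted p gave 1 gene, Igfbp7, across organs, where the calls over all 15348 genes rose from 0 to 144. With 1 library left out in turn, calls of the 6 genes were not stable for the LN and BM groups against MFP or between the BM groups. The calls over all genes moved there as well, so these changes were not particular to the 6 genes. Igfbp4 in LN CD44low against MFP was 2.99 without LN CD44low replicate 1 and 0.68 without replicate 2. Between the BM groups Igfbp7 was -3.97 without BM CD44low replicate 1 and 0.56 without replicate 2. Against MFP Igfbp7 in BM CD44low ran from -0.44 to 4.1. The interaction contrast of Igfbp4 lost its call without lung CD44low replicate 1 (-3.58, adjusted p = 0.0831) or lung CD44high replicate 2 (-3.13, adjusted p = 0.0688). A lone library left in a group was assumed to vary like the others. Causes were not tested. Whether libraries with the same replicate number came from the same mouse is not given in the sources used here, and the main fit used no pairing. Same-numbered deviations correlated at -0.194 to 0.168 between groups, which cannot settle this. The fit with the replicate block gave the same number of called genes in each comparison (4 between the lung groups). Scaling by median ratios (0.799 to 1.23) changed no call of the 24. For single cells, 146 of 160 alternative levels lay within the main interval. The mean of per-cell values gave 9 of the 14 others, all lower: Igfbp4 (10.4), Igf1r (2.06), Igfbp3 (0.0319) and Igfbp5 (0.0467) in lungL, Igf1 (0.123) and Igfbp7 (0.349) in lungH, and Igf1r (0.407), Igfbp5 (0.266) and Igfbp7 (0.131) in lymphH. With all barcodes Igfbp4 was 11.7 in lungL, Igfbp6 in lungH was 0 with over 500 genes or at least 2000 counts per cell, and in the highest cluster Igf1r was 3.7 at resolution 0.4 and Igfbp7 10.4 at resolution 1.2, against 6.04 and 8.02. Taking only cells with at least 2000 counts, an alternative chosen after seeing the data, gave 13.4 counts of Igfbp4 per 10000 in lungL. Across all genes a pseudocount of 0.1 called 4165 genes in lung CD44low and 3286 in lung CD44high against MFP.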
